A study of Homo sapiens with 6 samples.

Results

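The NRF2 redox and NADPH genes are 35 genes taken by name from the 16779 genes of the count tables, and all 35 were found there. The study sequenced RNA of 6 libraries that carry the label A549, an established line of human lung adenocarcinoma cells. By genotype, 3 of them are RN7SK knockout and the other 3 are wild-type controls, and no treatment, time or age is named. RN7SK encodes 7SK, a small nuclear RNA that keeps the elongation kinase P-TEFb inactive. How the knockout was made, whether it is a single clone, and whether the replicates are separate cultures is not given in the labels, so the p-values below measure only the spread between these samples. A549 cells are known to carry an inactivating mutation of KEAP1. By the labels alone both groups would share it, and its presence in the libraries was not tested.

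NRF2, encoded by NFE2L2, is the transcription factor that answers oxidants and electrophiles. In unstressed cells KEAP1 binds NRF2 and passes it to a CUL3 ubiquitin ligase for degradation; when KEAP1 is modified or lost, NRF2 pairs with a small MAF protein and binds the antioxidant response element. Its known targets make glutathione, reduce thioredoxin, supply NADPH through the pentose phosphate pathway, and reduce or conjugate quinones and other reactive compounds. In lung tumours with a defective KEAP1 these targets are known for a constantly high expression.

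The libraries held 16018260 to 18488790 counts in the knockout group and 18612303 to 19357144 counts in the control group. The tables hold 0 rows for RN7SK, so the targeted gene does not check the labels. In A549, CDKN2A and CDKN2B are known to be deleted on both chromosomes. CDKN2A had 0, 1 and 2 counts in knockout libraries and 963, 1005 and 923 counts in control libraries, and CDKN2B had 0, 1 and 0 counts in knockout libraries and 216, 241 and 238 counts in control libraries. The control libraries therefore go against the cell line in their label. Knockout and control below thus mean the labels of the libraries and no more. Whether the control libraries carry the KEAP1 mutation known for A549 was not tested, so an equal KEAP1 background of the groups cannot be assumed. MTAP, the third gene known as deleted in the line, had 13.1 ± 1.17 CPM (counts scaled to library size times the TMM normalization factor) in knockout and 45.3 ± 1.66 CPM in control libraries. With 240, 201 and 233 counts, MTAP was thus not absent from the knockout libraries either, and the reason was not tested. Of the 5 epithelial markers, KRT8, KRT18 and CDH1 were expressed in both groups, while EPCAM and KRT19 stayed under 1 CPM in group means. All of the expressed markers were higher in knockout libraries. KRT8 had 2965 ± 37.9 CPM in knockout and 1544 ± 60.2 CPM in control libraries. KRT18 had 1605 ± 7.79 and 1323 ± 31.1 CPM in the same order, and CDH1 had 158 ± 4.38 and 29.2 ± 1.48 CPM. The 5 alveolar markers summed to 79.5 to 91.4 CPM in knockout and 79.3 to 85.2 CPM in control libraries, nearly all of it ABCA3 (83.5 ± 5.98 CPM in knockout and 81.6 ± 2.93 CPM in control libraries), with SFTPB at 0 in all libraries. The 5 endothelial markers summed to 3.57 to 4.06 CPM in knockout and 160.7 to 173 CPM in control libraries, where ESAM and ENG made up most of the sum and PECAM1 and VWF were at or near 0. The 5 haematopoietic markers summed to 53.3 to 57.7 CPM in knockout and 33.9 to 37.4 CPM in control libraries, mostly CD68 (47.7 ± 1.53 CPM in knockout and 33.5 ± 1.93 CPM in control libraries), with CD3E at 0 in all libraries. The 5 fibroblast markers summed to 38.1 to 40.3 CPM in knockout and 26.2 to 27.8 CPM in control libraries. COL1A2 was at 0 in the control libraries. The markers of this list did not move together. COL1A1 was 3.74-fold and TWIST2 7.01-fold higher in knockout libraries. FBN1 went the other way, with 16.6 ± 0.122 CPM in knockout and 22.3 ± 0.924 CPM in control libraries. These differences run between the same groups as the labelled genotype, so the design cannot tell them apart from an effect of RN7SK. Their part in the results below was not tested.

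The antioxidant response element holds the core TGACNNNGC. This core was searched on both strands in the RefSeq promoter windows (GRCh38.p14, 250 bases before to 50 bases after an annotated start). Of the 35 genes, 28 matched a window, and CBR3, GSR, GSS, PRDX1, PRDX6, SLC7A11 and TRIM16L did not. The core was found in at least 1 window of 12 of these 28 genes (42.9%), against 18.5% of the 13237 genes of the count tables that have a window. By window, 13 of 40 windows of the set (32.5%) held it, against 13.3% of all 35116 windows. A match of these letters is a description of sequence, and no test was made of the shares.

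The windows around the core are shown for genes from each step of the pathway, 5′ to 3′ on the strand of the gene, with the core or its reverse complement in capitals. They can be compared for the bases between TGAC and GC and for the orientation of the core.
GCLM (chr1:93909440-93909480, minus strand): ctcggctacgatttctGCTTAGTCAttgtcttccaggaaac
KEAP1, nearer core (chr19:10502778-10502818, minus strand): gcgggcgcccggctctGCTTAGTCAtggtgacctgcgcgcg
KEAP1, farther core (chr19:10502801-10502841, minus strand): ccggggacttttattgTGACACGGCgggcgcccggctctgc
GPX2 (chr14:64942843-64942883, minus strand): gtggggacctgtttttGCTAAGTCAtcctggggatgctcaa
TXNRD1, downstream start (chr12:104286914-104286954, plus strand): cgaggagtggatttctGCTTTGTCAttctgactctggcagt
CBR1 (chr21:36069849-36069889, plus strand): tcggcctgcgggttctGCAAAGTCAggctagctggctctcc
ME1 (chr6:83431164-83431204, minus strand): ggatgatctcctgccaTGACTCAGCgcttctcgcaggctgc
PGD (chr1:10398847-10398887, plus strand): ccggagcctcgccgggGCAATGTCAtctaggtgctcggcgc
MAFF (chr22:38201856-38201896, plus strand): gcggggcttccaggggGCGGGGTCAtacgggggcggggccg

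GCLM and the nearer core of KEAP1 held the same 9 letters in the same orientation, 34 and 31 bases before their starts. The cores of GPX2, CBR1 and PGD began 122, 159 and 201 bases before the start. The core shown for ME1 contains TGACTCA, the site known for AP-1 factors, and ME1 has another core without it, centred 15 bases after the start. TGACTCA was found in 1 window each of ME1, PIR and OSGIN1, 3 of the 28 genes, against 5.34% of the genes of the count tables that have a window. The window of the upstream start of TXNRD1 (chr12:104215529-104215828, plus strand) is shown whole as an example of the spacing of 2 cores in opposite orientation, 99 and 8 bases before the start. Windows of KEAP1 and ME1 also held 2 cores in opposite orientation.
TXNRD1, upstream start: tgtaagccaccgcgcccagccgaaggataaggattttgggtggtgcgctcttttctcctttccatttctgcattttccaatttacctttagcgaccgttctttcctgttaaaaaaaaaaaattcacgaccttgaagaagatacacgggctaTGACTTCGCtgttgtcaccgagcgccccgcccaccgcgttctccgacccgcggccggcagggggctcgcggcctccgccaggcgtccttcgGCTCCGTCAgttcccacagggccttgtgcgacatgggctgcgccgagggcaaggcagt

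**Figure D1:**
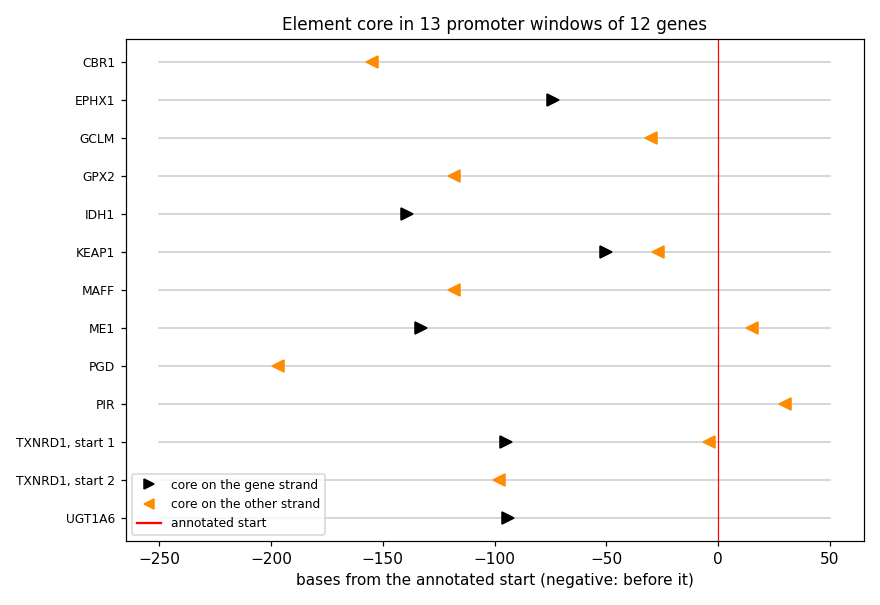
Position of the core TGACNNNGC in 13 promoter windows of 12 genes; the horizontal axis gives bases from the annotated start, and arrows give the orientation of the core. The cores lie between 197 bases before and 30 bases after the start, counted to their centre, and TXNRD1 has cores at both of its starts.

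Of the 12 genes with a core, MAFF alone fell, and UGT1A6 was not tested. The 16 genes without one in their windows included NQO1, GCLC and SQSTM1, which rose, and GPX4 and NFE2L2, which fell. Sequence more than 250 bases before a start was not searched, so a core there would be missed. The median log2 fold change was 1.33 over the 11 tested genes with a core and 1.44 over the 16 tested genes without one, and the ranges of both overlapped, at -0.63 to 2.59 and -2.68 to 2.93.

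Most of the set was higher in the libraries labelled knockout. Of the 34 genes that passed the low-count filter, 27 rose, 6 fell and GPX3 did not pass; UGT1A6 was not tested. Of all 12929 tested genes, 85.0% passed, 42.0% rising and 43.0% falling, so a pass in itself was common in this comparison. A rise of at least 2-fold was found for 24 genes of the set, against 19.5% of all tested genes, and a fall of at least 2-fold for GPX4 and GSS, against 14.1% of all tested genes. The median log2 fold change of the set was 1.42, against -0.01 over all tested genes. In CPM, all 3 knockout libraries lay above all 3 control libraries for 29 of the 35 genes and below them for 6. The 29 include UGT1A6, which was not tested. Over all tested genes, 42.4% lay above and 43.2% below in this way, so 85.6% did not overlap. The 33 genes that rose or fell had adjusted p between 2.24e-32 and 4.83e-05 (edgeR quasi-likelihood test, Benjamini-Hochberg over all tested genes). Together the 35 genes took 1.86%, 1.84% and 1.84% of the counts in knockout replicates 1 to 3, and 0.807%, 0.829% and 0.807% in control replicates 1 to 3.

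**Figure D2:**
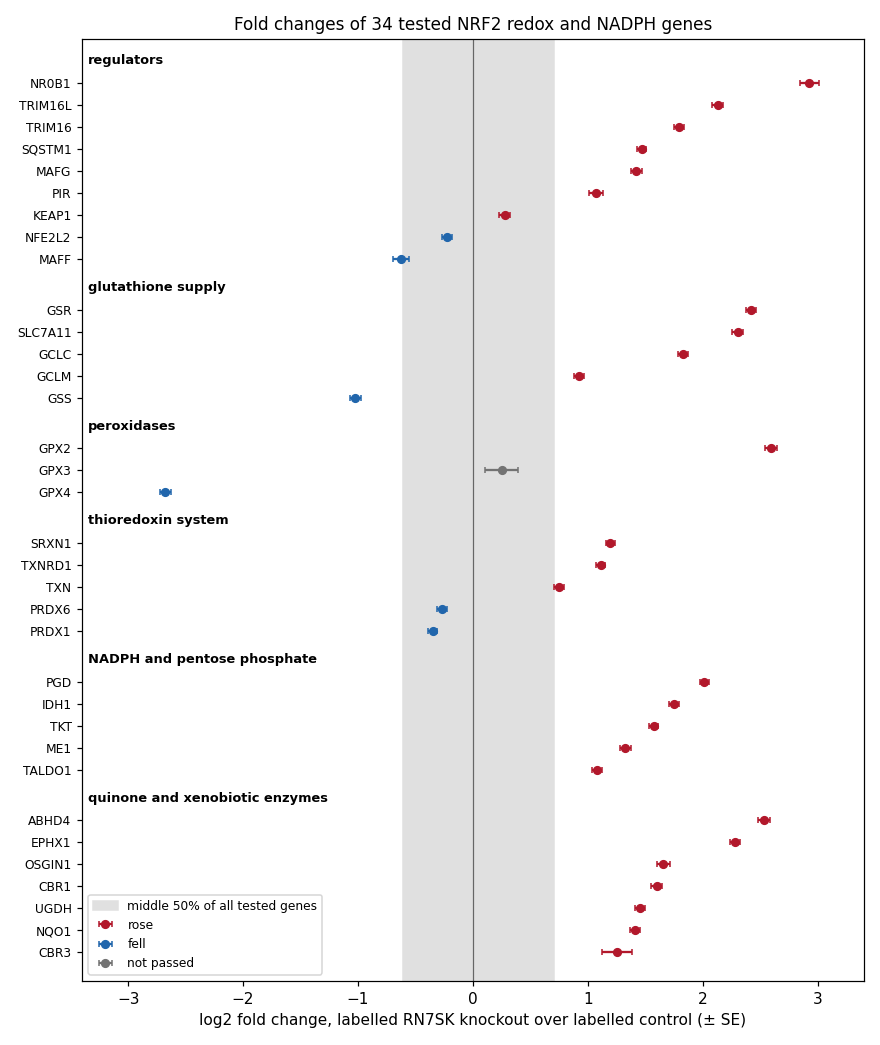
Log2 fold change of the 34 tested genes by role, labelled RN7SK knockout over labelled control; points are fitted values, bars are SE, and the grey band holds the middle 50% of all tested genes. GPX4 at -2.68 and NR0B1 at 2.93 are the ends of the set, and all 5 NADPH and pentose phosphate genes lie to the right of the band.

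The deposited FPKM (fragments per kilobase of gene, scaled to library size) imply a gene length for each gene, and these lengths differed between the groups. The length was shorter in the knockout tables for 32 of the 35 genes and longer for NR0B1 and PRDX6, with a median ratio of 0.959 in the set and 0.988 over all genes. With the lengths as an offset, log2 fold changes of the set moved by -0.19 to 0.28. SLC7A11, GCLM, GSS, TRIM16, OSGIN1 and CBR3 had lengths within 1% of each other, and of these 6 genes 5 rose and GSS fell. A difference in gene model can also change which reads are counted; its part in the results was not tested. In these bulk libraries, fewer cells with a transcript and less transcript per cell cannot be told apart.

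Among the regulators, the gene of NRF2 itself was lower in counts and its partner MAFG was higher. NFE2L2 (chr2:177230303-177264727) had 130.2, 122 and 132 CPM in knockout libraries, against 151, 149.9 and 149 CPM in control libraries. It fell by 0.22 ± 0.046 on the log2 scale (fit ± SE), and the groups did not overlap. This call was lost with the recovered lengths, 3180 bases in the knockout and 3584 bases in the control tables: the log2 fold change was -0.05 with the lengths as an offset (edgeR adjusted p = 0.3) and -0.02 on log2(FPKM + 0.1) (limma adjusted p = 0.608). Per length, NFE2L2 stood at 40.0 ± 1.81 FPKM in knockout and 40.7 ± 0.396 FPKM in control libraries (SD, n = 3 each).

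KEAP1 (chr19:10486125-10503356), the adaptor that hands NRF2 to the ligase, had 119, 124 and 120.5 CPM in knockout libraries, against 99.7, 98.6 and 102 CPM in control libraries. It rose 1.21-fold, one of 3 genes of the set that rose less than 2-fold. The FPKM ratio of KEAP1 to NFE2L2 was 0.961, 1.07 and 0.957 in knockout libraries and 0.768, 0.762 and 0.798 in control libraries, with no overlap. MAFG, which pairs with NRF2 on DNA, rose 2.68-fold to 220.4 ± 5.21 CPM in knockout libraries, against 82.1 ± 1.77 CPM in control libraries. Its relative MAFF went the other way, with 26.9, 24.9 and 23.9 CPM in knockout libraries, against 38.4, 42.0 and 36.4 CPM in control libraries. The FPKM of MAFG was 4.14 ± 0.344 times that of MAFF in knockout libraries and 1.02 ± 0.0936 times in control libraries.

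SQSTM1 encodes p62, an autophagy receptor that sequesters KEAP1 and is itself a known target of NRF2. It had 4514, 4572 and 4485 CPM in knockout libraries, against 1606, 1669 and 1629 CPM in control libraries. SQSTM1 thus made up 24.5%, 24.9% and 24.7% of the counts of the set in knockout replicates 1 to 3, and 19.8%, 19.9% and 20.0% in control replicates 1 to 3. SQSTM1 overlaps the ends of MGAT4B and MRNIP in RefSeq, and how the counting treats shared bases is not given in the sources used here.

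NR0B1, which encodes the orphan nuclear receptor DAX1, had the largest log2 fold change of the set on counts, 2.93. With the lengths as an offset it was 2.73, below the 2.83 of GPX2. NR0B1 had 55.3, 50.2 and 56.6 CPM in knockout libraries, against 6.75, 7.07 and 7.48 CPM in control libraries, a 7.6-fold rise. TRIM16, a tripartite motif protein, rose 3.47-fold to 272 ± 1.30 CPM in knockout libraries, against 78.5 ± 4.07 CPM in control libraries. The similar TRIM16L rose 4.38-fold to 344 ± 3.45 CPM in knockout libraries, against 78.5 ± 3.10 CPM in control libraries. As copies of a shared sequence they could exchange reads, and their fold changes are uncertain to that extent. PIR, which encodes the nuclear iron-binding protein pirin, rose 2.10-fold to 58.8 ± 0.918 CPM in knockout libraries, against 28.0 ± 1.93 CPM in control libraries.

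**Figure D3:**
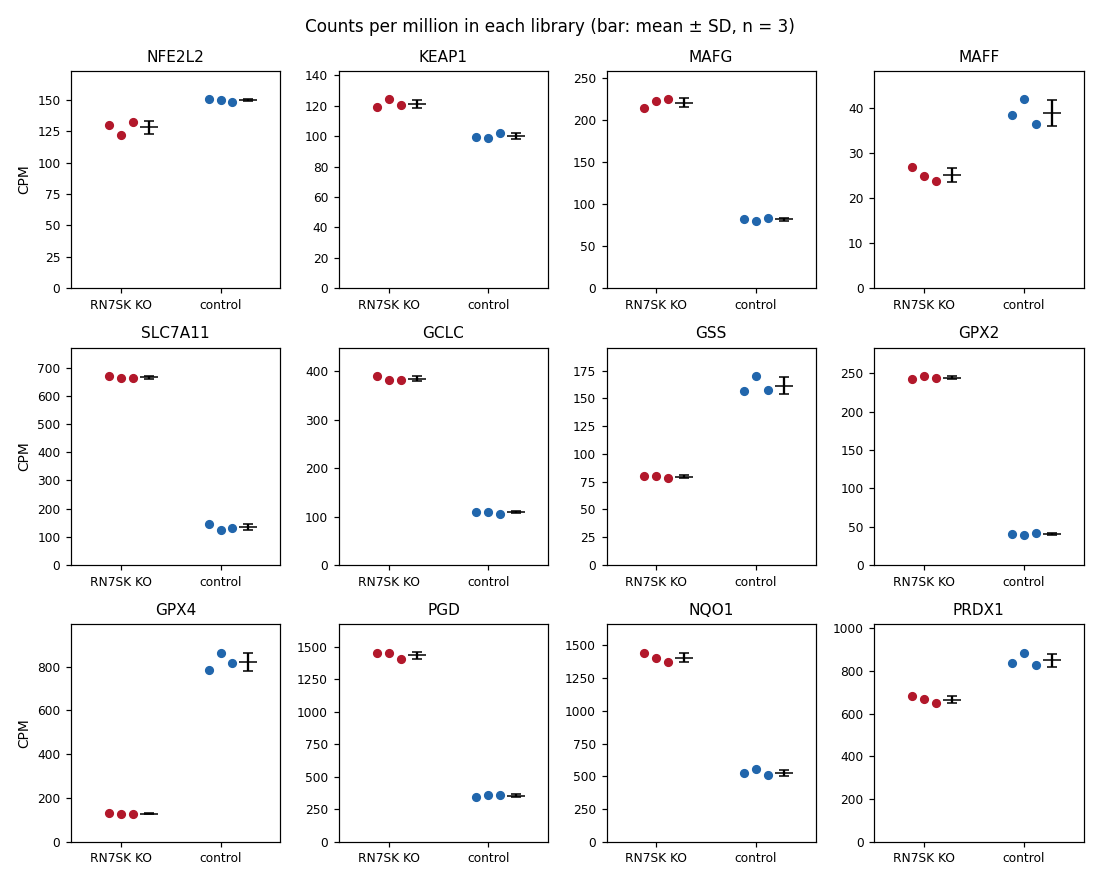
CPM of 12 genes of the set in each library, labelled RN7SK knockout left and labelled control right, on axes from 0; black bars are mean ± SD (n = 3). The groups do not overlap in any of the 12 panels, with NFE2L2, MAFF, GSS, GPX4 and PRDX1 lower and the other genes higher in the knockout libraries. Over all tested genes, 85.6% did not overlap.

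The steps that bring in cystine and join it into glutathione were mostly higher, except the last. SLC7A11, the cystine importer, had 671, 663 and 663 CPM in knockout libraries, against 147, 125 and 133 CPM in control libraries, a rise of 2.30 ± 0.049 on the log2 scale. GCLC and GCLM are the catalytic and modifier subunits of glutamate-cysteine ligase, the rate-limiting enzyme of glutathione synthesis. GCLC rose 3.54-fold to 385 ± 4.66 CPM in knockout libraries, against 109 ± 2.17 CPM in control libraries. GCLM had 174, 170.2 and 173 CPM in knockout libraries, against 90.4, 92.1 and 90.3 CPM in control libraries, a 1.90-fold rise. The subunits differed in their fold, and the FPKM ratio of GCLC to GCLM was 4.16, 4.17 and 4.09 in knockout libraries and 2.01, 1.98 and 1.95 in control libraries.

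GSS (chr20:34928432-34956027) encodes glutathione synthetase, the second and last enzyme of the synthesis. It had 79.7, 80.4 and 77.9 CPM in knockout libraries, against 157, 170.2 and 157 CPM in control libraries. All knockout libraries lay below all control libraries, and GSS fell by 1.02 ± 0.049 on the log2 scale, with recovered lengths of 2987 bases in the knockout and 2997 bases in the control tables. This is close to 2-fold, and without control replicate 2 the log2 fold change was -0.99. GSR, the reductase that returns oxidised glutathione with NADPH, moved the other way and rose 5.35-fold, with 529, 514 and 514 CPM in knockout libraries, against 91.6, 104 and 95.9 CPM in control libraries.

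The glutathione peroxidases, which use glutathione to reduce peroxides, did not move together. GPX2, the peroxidase known from the gut epithelium, had 242, 247 and 244 CPM in knockout libraries, against 39.8, 39.4 and 42.2 CPM in control libraries. It rose 6.04-fold. GPX4 (chr19:1103994-1106779), which reduces lipid peroxides in membranes and guards against ferroptosis, had 130.1, 128 and 127 CPM in knockout libraries, against 783, 863 and 814 CPM in control libraries. GPX4 fell by 2.68 ± 0.045 on the log2 scale and had the lowest adjusted p of the set, 2.24e-32 (edgeR). Its recovered length was 1153 bases in the knockout and 1403 bases in the control tables, and the log2 fold change was -2.39 with the lengths as an offset. RefSeq lists 0 genes that overlap GPX4, while 20 of the 35 genes of the set overlap another gene there. Among the genes that fell, GSS overlaps MYH7B, MAFF overlaps TMEM184B and PRDX1 overlaps MMACHC, all of them genes of the count tables.

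The balance of the peroxidases in FPKM thus differed between the groups. GPX2 stood at 2.33, 2.42 and 2.40 times GPX4 in knockout libraries and at 0.0655, 0.0588 and 0.0669 times GPX4 in control libraries. GPX3, the secreted plasma peroxidase, was low throughout, with 6.13, 6.57 and 5.78 CPM in knockout libraries, against 4.48, 5.76 and 5.28 CPM in control libraries. It did not pass (log2 fold change 0.25 ± 0.15, edgeR adjusted p = 0.107). With recovered lengths of 1630 bases in the knockout and 1814 bases in the control tables as an offset, its log2 fold change was 0.4 (edgeR adjusted p = 0.0112).

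In the thioredoxin system, the reducing enzymes rose and both peroxiredoxins of the set fell. TXN, thioredoxin, had 538, 504 and 495 CPM in knockout libraries, against 294, 322 and 298 CPM in control libraries, a 1.68-fold rise. TXNRD1, the selenoprotein that reduces thioredoxin with NADPH, rose 2.16-fold to 1753 ± 26.2 CPM in knockout libraries, against 810.4 ± 22.7 CPM in control libraries. SRXN1, sulfiredoxin, which repairs overoxidised peroxiredoxins, rose 2.29-fold to 446 ± 0.918 CPM in knockout libraries, against 194 ± 5.27 CPM in control libraries.

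PRDX1 and PRDX6, abundant enzymes that break down peroxides, had smaller differences in the other direction. PRDX1 had 684, 667 and 648 CPM in knockout libraries, against 836, 885 and 827 CPM in control libraries. PRDX6 had 195, 195 and 192 CPM in knockout libraries, against 244, 229.7 and 228 CPM in control libraries. They fell by 0.35 ± 0.040 and 0.27 ± 0.044 on the log2 scale, and neither overlapped between the groups.

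All 5 genes of NADPH supply rose, each at least 2-fold, a rise found for 19.5% of all tested genes. PGD, the second NADPH-producing step of the oxidative pentose phosphate pathway, had 1449.7, 1454 and 1404 CPM in knockout libraries, against 342, 361 and 362 CPM in control libraries, a 4.04-fold rise. TKT and TALDO1, transketolase and transaldolase of the non-oxidative branch, rose 2.98-fold and 2.12-fold. TKT had 1652, 1656 and 1652 CPM in knockout libraries, against 538, 557 and 569 CPM in control libraries. IDH1, the cytosolic isocitrate dehydrogenase, rose 3.36-fold to 419.6 ± 11.5 CPM in knockout libraries, against 125 ± 3.57 CPM in control libraries. ME1, the cytosolic malic enzyme, rose 2.51-fold to 188 ± 3.13 CPM in knockout libraries, against 74.8 ± 2.64 CPM in control libraries.

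The quinone and xenobiotic enzymes that could be tested, 7 of 8, also rose at least 2-fold, against 19.5% of all tested genes. NQO1 (chr16:69709401-69726560), the quinone reductase often used as a readout of NRF2, had 1442, 1401 and 1373 CPM in knockout libraries, against 526, 552 and 507 CPM in control libraries, a 2.66-fold rise. EPHX1, microsomal epoxide hydrolase, had 473, 479 and 470.0 CPM in knockout libraries, against 94.2, 99.4 and 98.6 CPM in control libraries, a 4.86-fold rise. The carbonyl reductase gene CBR1 rose 3.03-fold to 164 ± 2.01 CPM in knockout libraries, against 53.9 ± 0.313 CPM in control libraries. Its neighbour CBR3 was far lower, at 11.5 ± 1.19 CPM in knockout and 4.81 ± 0.326 CPM in control libraries, and rose 2.38-fold.

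UGDH, which makes the UDP-glucuronate that glucuronidation uses, rose 2.75-fold to 425 ± 6.55 CPM in knockout libraries, against 155 ± 7.01 CPM in control libraries. OSGIN1, an oxidative stress induced growth inhibitor, rose 3.16-fold to 99.8 ± 1.62 CPM in knockout libraries, against 31.6 ± 1.71 CPM in control libraries. The lipase gene ABHD4 rose 5.81-fold, with 182, 189.5 and 185 CPM in knockout libraries, against 32.5, 30.7 and 32.8 CPM in control libraries. UGT1A6, a glucuronosyltransferase, was nearly silent, with 7, 7 and 10 counts in knockout libraries and 3, 0 and 1 counts in control libraries. The summed ratio was 6.71 (95% exact counting interval 2.31 to 26.6, counting error only). UGT1A6 shares all exons but the first with the other UGT1A genes, of which the 6 in the tables summed to 0.896 to 1.29 CPM in knockout and 0.314 to 0.702 CPM in control libraries, and their reads may have been split.

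Per length, the order of the genes also differed. In knockout libraries SQSTM1 led with 1375 ± 8.18 FPKM, followed by TXN (689 ± 28.2 FPKM), PGD (628 ± 8.52 FPKM) and NQO1 (553 ± 11.7 FPKM), none of which overlapped the next gene in the order. TKT (526 ± 2.70 FPKM) and PRDX1 (517 ± 11.6 FPKM) followed and overlapped each other. In control libraries PRDX1 (613 ± 22.4 FPKM) and GPX4 (569 ± 26.9 FPKM) led and overlapped each other, followed by SQSTM1 (411 ± 7.22 FPKM), TXN (342 ± 16.3 FPKM) and NQO1 (196 ± 8.54 FPKM). The levels in each group rest on that group's gene lengths. Replicates of the tested genes differed little, with a median coefficient of variation of 1.59% in knockout and 3.81% in control libraries.

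**Figure D4:**
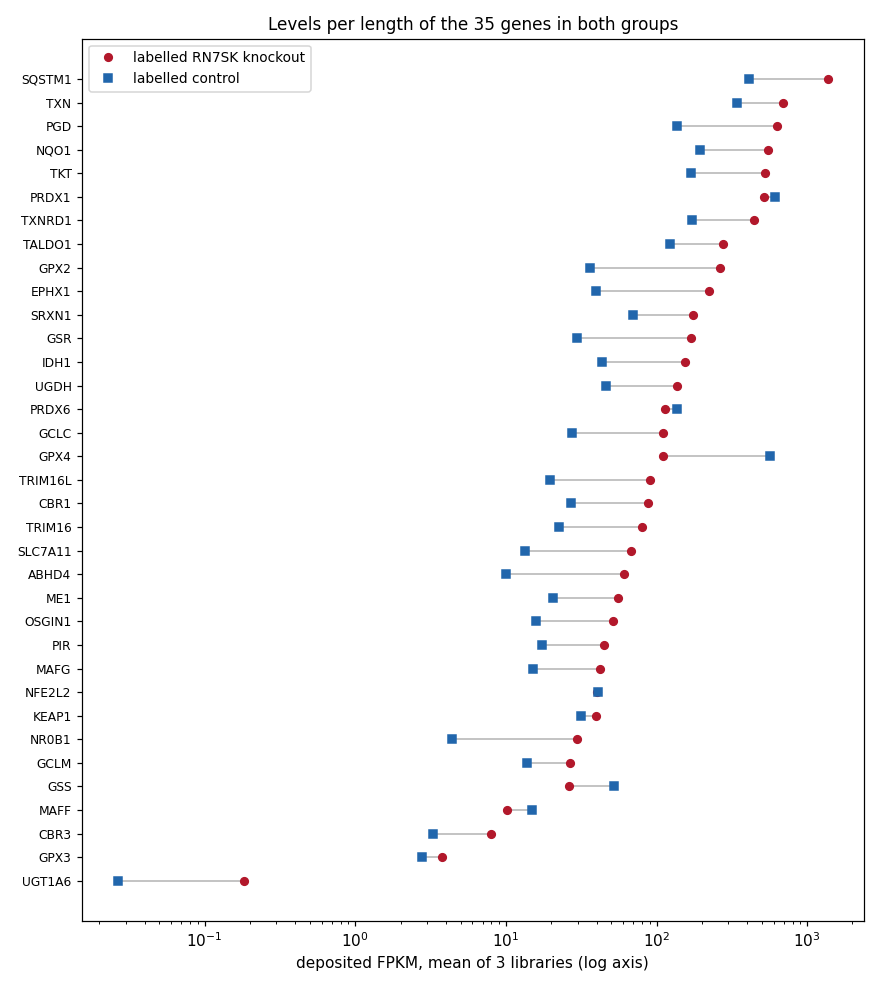
Deposited FPKM of the 35 genes on a log axis, mean of 3 libraries, with red circles for labelled RN7SK knockout and blue squares for labelled control. GPX4 stands at 110.4 FPKM in knockout and 569 FPKM in control libraries, the widest gap among the genes that were higher in control, and NFE2L2 is nearly at the same level in both.

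Other genes of the pathway, outside the set, were counted in 4 lists. For comparison, 42.0% of all tested genes rose and 43.0% fell, so 85.0% passed in either direction. Of 12 tested regulators and partners of NRF2, 4 rose, 4 fell and 4 did not pass (median log2 fold change 0.05). CUL3, the scaffold of the KEAP1 ubiquitin ligase, fell by 0.87 ± 0.052 on the log2 scale, while NFE2L1, a relative of NRF2, rose 1.97-fold. SYVN1, another ubiquitin ligase, rose to 95.7 ± 3.66 CPM in knockout libraries, against 47.8 ± 6.29 CPM in control libraries. The recovered length of NFE2L1 was 3426 bases in the knockout and 4977 bases in the control tables, and its log2 fold change of 0.98 became 1.52 with the lengths as an offset. On log2(FPKM + 0.1), 7 genes of this list rose.

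Of 25 other tested antioxidant enzymes, 16 rose, 6 fell and 3 did not pass (median log2 fold change 0.33). SESN2 and SESN3, stress-responsive sestrins, rose 6.68-fold and 8.84-fold. PRDX2, a cytosolic peroxiredoxin, had 1, 1 and 0 counts in knockout libraries and 609, 679 and 662 counts in control libraries. Its summed level was 871 times lower in knockout libraries (ratio of control to knockout, 95% exact counting interval 240.9 to 7199). The recovered length of PRDX2 was 925 bases in the knockout tables, resting on those few counts, and 1038 bases in the control tables. Whether the gene model or the counting had a part in this difference was not tested.

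Of 15 other tested NADPH and pentose phosphate genes, 5 rose, 8 fell and 2 did not pass (median log2 fold change -0.15). H6PD, an NADPH-producing enzyme of the endoplasmic reticulum, rose 3.89-fold to 104 ± 2.65 CPM in knockout libraries, against 26.9 ± 2.74 CPM in control libraries. NNT, the mitochondrial transhydrogenase, fell by 2.15 ± 0.055 on the log2 scale.

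Of 11 other tested genes of glutathione handling, 4 rose, 6 fell and 1 did not pass (median log2 fold change -0.49). CHAC1, which degrades glutathione, and GGT1, which splits it outside the cell, rose 8.01-fold and 6.94-fold. The recovered length of CHAC1 was 3722 bases in the knockout and 6082 bases in the control tables, and with the lengths as an offset its log2 fold change was larger, at 3.71. GGT1 has close copies in the genome that may share its reads. SLC3A2, the heavy chain that partners the cystine importer SLC7A11, rose 3.86-fold to 1355 ± 2.21 CPM in knockout libraries, against 351 ± 7.73 CPM in control libraries.

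**Figure D5:**
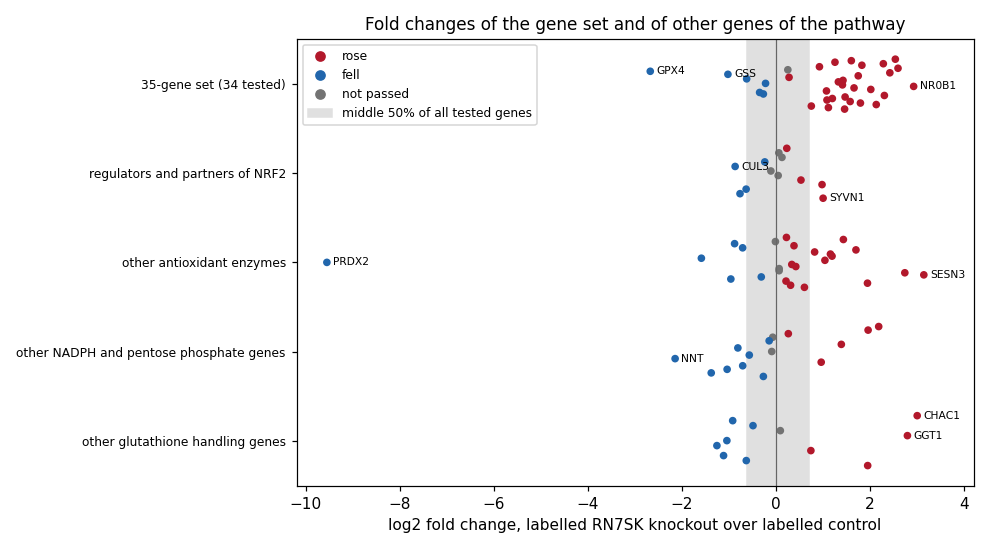
Log2 fold changes, labelled RN7SK knockout over labelled control, for the 34 tested genes of the set and for 4 lists of other pathway genes; each point is a gene and the grey band holds the middle 50% of all tested genes. The set has a median of 1.42, and the other lists have medians between -0.49 and 0.33 and each hold genes that rose and genes that fell.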

How the data were processed

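Total RNA of 6 libraries was sequenced after mRNA library preparation, per the labels. Build GRCh38 and the tools HISAT2 2.2.1.0, FastQC 0.11.5 and Trimmomatic 0.36 are listed, per the submitters' processing notes; for the counter, annotation and strand setting nothing is stated in the sources used here. The authors deposited whole-number counts per gene symbol, used for the main results, and FPKM.

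Counts were compared with edgeR 4.0.16 in R 4.3.3 (filterByExpr, TMM factors, glmQLFit robust, glmQLFTest, two-sided, Benjamini-Hochberg over 12929 genes, threshold 0.05). SE is the log2 fold change divided by the root of the F statistic. CPM use the TMM factors. Gene lengths were recovered from count, FPKM and the authors' total, of which the tables hold 98.2% to 98.4%. On counts simulated for this comparison (12764 genes), the test called 86.4% of those given a change of 0.5 on the log2 scale. The simulation changed 200 genes and used a single dispersion for all, while 85.0% of tested genes passed in the data. This rate therefore need not hold for the data. Positions and promoters come from RefSeq by symbol (35 of 35 genes). Replicates were not duplicates: their counts gave 1.73 to 8.04 chi-square units per degree of freedom. Alternatives used DESeq2 1.42.0, limma 3.58.1 and others. Members and lists were chosen with earlier results of these data known. Named outside the set were at most 3 genes of each list, by size of log2 fold change with a mean of at least 5 CPM. A gene that this rule would name is not reported here. Protein comparisons of copies within the set were planned and were not run. Counting intervals cover counting error only.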

Additional observations from a re-analysis of the deposited data

How the results depend on the processing

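Over 19 alternatives, the 34 tested genes kept their direction in every fit that held them, and 607 single-gene values stayed on the same side of the threshold; NFE2L2 lost its call in 4 alternatives and GPX3 passed in 5. The counts of the set (27 rose, 6 fell, 24 rose at least 2-fold) stayed within 1.5 times in all alternatives except among genes with recovered lengths within 1%, where only 6 of the set remain: 5 rose, 1 fell, 4 rose and 1 fell at least 2-fold, with a median log2 fold change of 1.46. Over all genes that limit left 1719 that rose and 1732 that fell, 843 and 587 of them at least 2-fold. In the other lists it left 2 and 2 regulators, 3 and 1 antioxidant enzymes, 1 and 2 NADPH genes, and 0 and 3 glutathione handling genes that rose and fell; fewer genes were tested there by construction. GSS was short of 2-fold, leaving 1 gene that fell at least 2-fold, under upper quartile factors, library size alone, a mean of at least 10 CPM, and the 3 FPKM fits. Leaving out a library gave 1 to 2 such genes and a median of 1.40 to 1.42. The median was 1.43 under DESeq2 size factors and in the DESeq2 test, 1.505 under upper quartile factors, 1.44 with library size alone, 1.41 without a filter, 1.53 at a mean of at least 10 CPM, 1.48, 1.46 and 1.47 in the FPKM fits (added 0.1, added 1, no filter), and 1.46 with the length offset. Genes that rose and fell at least 2-fold numbered 1340 and 1007 at a mean of at least 10 CPM and 1450 and 1177 on log2(FPKM + 1), where the added value shrinks low genes. The regulators that rose numbered 7, 7 and 8 in the FPKM fits, and 2 UGT1A genes rose without a filter on counts or on FPKM; the cause was not tested. With the replicate block, 5397 genes rose and 5513 fell, and 27 and 6 in the set. Same-numbered libraries did not deviate together (r = 0.018, -0.029 and -0.0085), so no pairing by number was seen. This check cannot show how the libraries were prepared.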
